A study of Mus musculus with 16 samples.

Results

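The 9 genes described here, Tbx1, Tbx2, Tbx3, Tbx4, Tbx5, Tbx6, Tbx15, Tbx18 and Tbx20, belong to the T-box family of transcription factors. They were taken by name from a list with no threshold on their values, although earlier results of these data were known when the list was drawn up. Each had 1 row among the 48526 genes of the deposited tables. The RNA came from heart regions dissected out of 16 single C57BL/6J mouse embryos at embryonic day 8.5, given as stage E8.5e, when the heart tube loops. The study compared 2 lines mutant for Greb1l, a gene that its title names alongside torsion of the heart tube. Line G3 contributed 4 embryos of genotype Greb1lem1Cjean/em1Cjean and 4 wild-type littermates as controls. Line G17 contributed 4 embryos of genotype Greb1lex17/ex17 and 4 wild-type littermates. All 16 embryos shared the strain, the stage and the dissected region.

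T-box factors bind DNA through a conserved domain, and family members with activating and repressing activity compete for the same sites. In the forming heart, Tbx5 and Tbx20 act with NKX and GATA factors in the myocardium, whereas Tbx2 and Tbx3 repress the chamber programme in the atrioventricular canal. Tbx1 marks the pharyngeal region in front of the heart, Tbx18 the sinus venosus behind it, and Tbx4, Tbx6 and Tbx15 are better known from the allantois, hindlimb, somites and skeletal mesenchyme.

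Libraries held 32391421 to 49353025 reads assigned to genes, and 18002 to 22689 genes had at least 1 read. Values are the authors' normalized reads, and a count of 3 reads, used as the detection floor, corresponded to 2.53 to 3.84 normalized reads. Greb1l RNA averaged 20144 ± 3377 in G3 embryos labelled mutant and 10984 ± 1319 in their controls, and 4215 ± 961.0 in G17 mutants and 9818 ± 508.1 in their controls (SD, n = 4 each). The direction of Greb1l thus differed between the lines, and G3 values are given for the libraries labelled mutant. All 8 G17 embryos were female by Xist and Y-linked genes, and each G3 group held 2 females and 2 males. The labels do not give litters, so p-values measure the spread between these embryos. Cardiomyocyte markers were abundant in every group, with a summed level of 124355 to 238329 normalized reads for 8 genes. Markers of yolk sac visceral endoderm were also present. Of 9, none passed in G3, 6 fell in G17 and 8 fell for the common effect. Their summed level in 9 genes was 6881 to 30635 in G3 embryos labelled mutant and 24536 to 92581 in G3 controls, and 9894 to 51441 in G17 mutants and 34853 to 255427 in G17 controls.

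Of the 9 T-box genes, 1 passed the threshold (limma, adjusted p under 0.05 over all genes tested) in G17 and none passed it in G3. The gene was Tbx4, which was higher in G17 mutants. It entered the G17 test only through its mutants. Its controls alone would also not have passed the low-value filter in G3 or for the common effect. Its calls, and its place in each count here, are thus a description and not support for the family. The count in G17 was 1 with edgeR and the authors' deposited table, 2 with DESeq2, which added Tbx3, and 0 with limma-voom. Among all genes tested, 3.03% were called in G17 and 3.98% in G3. At an unadjusted p under 0.05, 3 of 9 T-box genes were reached in each line, against 16.3% of all genes in G17 and 18.2% in G3. The count in G3 was 0 with edgeR, limma-voom and the authors' deposited table, and 1 with DESeq2, which called Tbx2. When both lines were fitted together with a term for line, the common effect of genotype was called for 2 members, Tbx4 and Tbx5, both higher in mutants, against 9.4% of all genes. The median log2 fold change of the 9 members was 0.080 in G3 and 0.084 in G17, against 0.012 and -0.0093 over all genes. For the common effect it was 0.26, against 0.0026 over all genes. That common median was the value of Tbx15, a gene close to the detection floor with a 95% interval of -1.44 to 1.95.

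**Figure D1:**
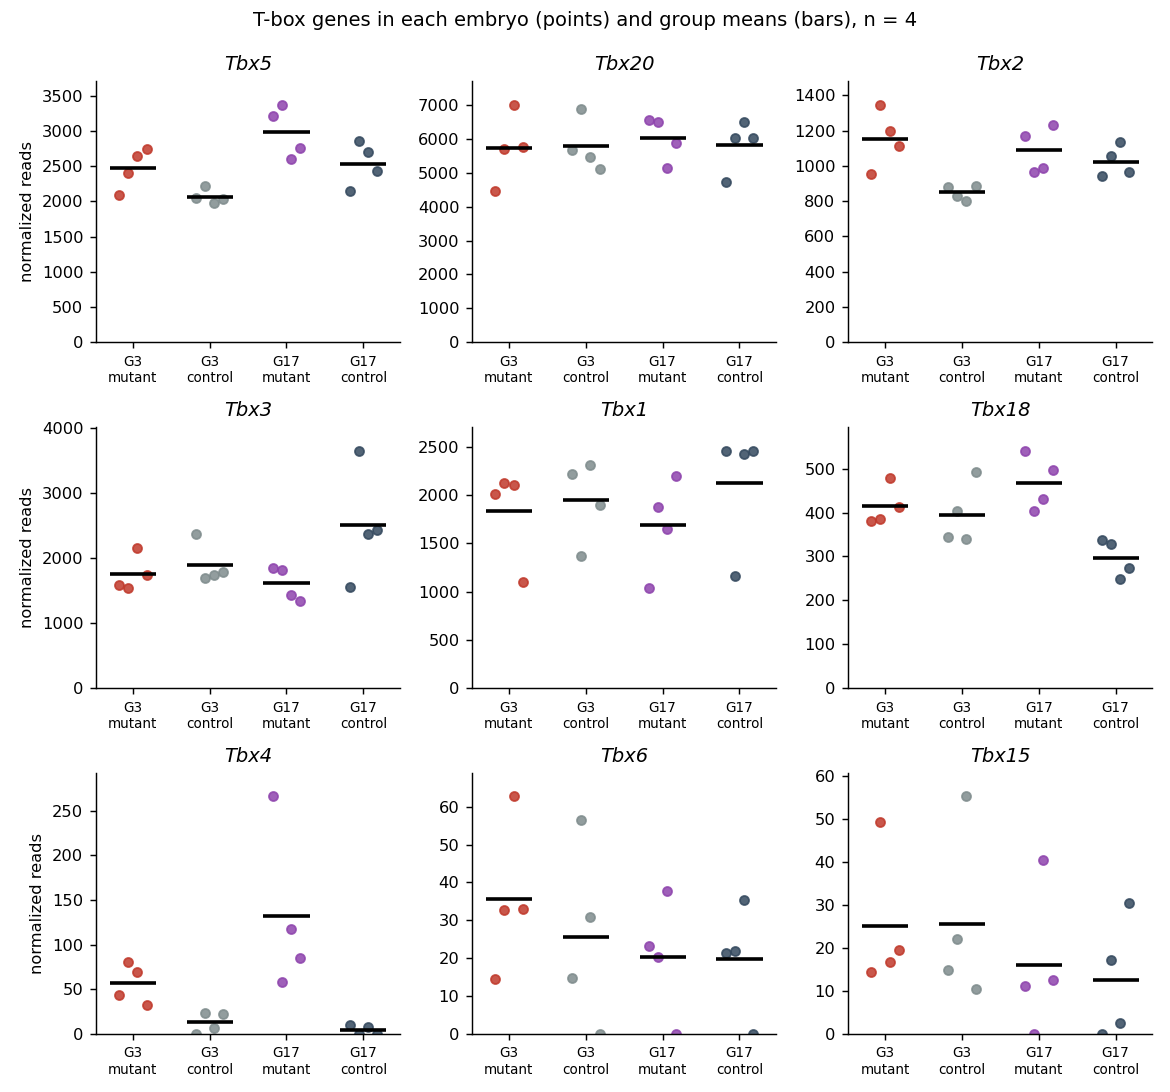
Normalized reads (vertical axes, linear from 0) of the 9 T-box genes in each of the 16 embryos, with mutants left of the controls of each line; points are embryos and bars are means of 4. Tbx4 is higher in every mutant than in every control of its line, Tbx2 separates the groups in G3 only, Tbx18 separates them in G17 only, and the other members overlap.

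Tbx4 lies on the plus strand of chr11:85886422-85916097 (GRCm38, GENCODE M21). It is known from the allantois, the hindlimb bud and lung mesenchyme. In G17 mutants it had 266, 58.5, 118 and 84.5 normalized reads (embryos 33, 36, 41 and 42), against 9.56, 0, 7.30 and 0 in G17 controls (embryos 20, 29, 35 and 37). Every mutant was above every control, and the 4 controls held 15 reads in all. The log2 fold change of value + 1 was 5.20 ± 1.07 (SE, adjusted p = 0.0204), and the authors' deposited table gave an adjusted p of 4.15e-05. The call was lost with limma-voom (adjusted p = 0.153) and with a pseudocount of 0.1 (adjusted p = 0.0687). The ratio of group means was 31.2, and it was 20.6 without mutant 33, the highest embryo, and 54.1 without control 20. Tbx4 passed the low-value filter in G17 only through the mutants, so a gene entering the test in this way had to differ. With no filter the adjusted p was 0.0432. Leaving out any 1 of the 4 mutants took it below the filter. With the set of tested genes kept, the adjusted p was then 0.0741, 0.0518, 0.0739 and 0.0646 without mutants 33, 36, 41 and 42, so the call rested on all 4 embryos.

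In G3, embryos labelled mutant had 43.3, 81.0, 69.2 and 32.1 normalized reads of Tbx4 (embryos 23, 29, 30 and 31), against 0, 22.8, 6.36 and 22.5 in controls (embryos 16, 18, 20 and 21). Again no mutant overlapped a control, but the log2 fold change of 2.75 ± 1.01 did not pass the threshold (SE, adjusted p = 0.164). The exact two-sided permutation test gave p = 0.0286 in each line, the smallest value that 70 arrangements of 4 against 4 allow. Over both lines, the common log2 fold change was 3.98 ± 0.77 (SE, adjusted p = 0.00191), with 8 of 8 mutants above all controls of their line. The fold changes of G17 and G3 differed by 2.45 ± 1.48 (SE, 95% interval -0.64 to 5.55, adjusted p = 0.823), so no difference between the lines was detected. In bulk RNA, more cells of a type and more RNA per cell cannot be told apart, and this holds for every gene below.

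The summed level of 9 markers of the posterior body and primitive streak, the region next to the allantois, overlapped between mutants and controls in both lines. It was 835 to 1310 in G3 embryos labelled mutant and 952 to 1330 in G3 controls, and 836 to 1197 in G17 mutants and 873 to 1491 in G17 controls. T (brachyury) had the highest mean of the 9 in every group, but the summed level did not follow it. The median sum was 992 in G3 embryos labelled mutant and 1138 in G3 controls. In G17 it was 1084 in mutants and 1236 in controls. The mean of T was instead higher in the mutants of each line. In G17, T averaged 801 ± 247 in mutants and 405 ± 264 in controls (SD). The other way, Cdx1 averaged 79.1 ± 36.4 in G17 mutants and 346 ± 246 in controls, and Wnt3a 19.9 ± 28.3 and 122 ± 20.7 (SD). Of 6 tested, none passed in either line, with medians of -0.07 in G3 and -1.48 in G17. For the common effect the median was -0.87, and Cdx1 and Wnt3a fell, but the call of Wnt3a held in only 5 of 23 alternative settings. Cdx4 had at most 3 reads in every mutant of both lines and was also low in controls. It had 0 to 8.45 normalized reads in G3 controls and 0 to 34.0 in G17 controls. Of the 14 genes chosen for limb field and allantois, 11 were tested in each line. Only Alx4, a homeobox gene of limb and craniofacial mesenchyme, rose in each line, and none of the 11 fell in either. Alx4 had 1294, 1536, 1553 and 1226 normalized reads in G3 embryos labelled mutant, against 398, 265, 223 and 377 in controls. In G17 it had 1254, 1885, 1448 and 1524 in mutants, against 590, 486, 469 and 464 in controls. Mutants and controls were fully apart in both lines, and the log2 fold change was 2.18 ± 0.19 in G3 and 1.59 ± 0.16 in G17 (SE, adjusted p = 6.18e-05 and 0.000226). For the common effect, Tfap2b, a gene of neural crest and limb, also fell by 2.84 on the log2 scale (adjusted p = 0.0262). Of 6 neural crest markers, Foxd3 and Sox10 fell in G3 and for the common effect, and none of 5 tested passed in G17. In G3, Foxd3 averaged 16.8 ± 26.9 in embryos labelled mutant and 197 ± 151 in controls, and Sox10 averaged 15.6 ± 3.35 in embryos labelled mutant and 95.3 ± 33.3 in controls (SD, n = 4 each). In G17, Foxd3 had 0 reads in all 4 mutants and 3.83 to 446 normalized reads in controls. The summed level of the 6 was 2991 to 3629 in G3 embryos labelled mutant and 3366 to 4609 in G3 controls, and 2833 to 3773 in G17 mutants and 3532 to 4877 in G17 controls, and its part in the Tfap2b value was not tested. The median log2 fold change of the limb field and allantois list was 0.29 in G3 and 0.07 in G17, against 0.012 and -0.0093 over all genes tested. Of all genes tested, 3.98% were called in G3 and 3.03% in G17. The hindlimb regulator Pitx1 did not pass the threshold in either line, with 142 ± 84.0 in G3 embryos labelled mutant and 62.0 ± 25.3 in controls, and 111 ± 63.3 in G17 mutants and 192 ± 110 in controls (SD, n = 4 each).

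The sequence before the RefSeq start is shown for Tbx4, the member with the largest fold change, and for Tbx18, the other member whose groups were apart in G17. Both run 5′ to 3′ on the gene's strand and hold the 250 bases before the RefSeq start (GRCm38.p6), chr11:85896515-85896764 on the plus strand for Tbx4 and chr9:87731261-87731510 on the minus strand for Tbx18. The Tbx4 window lies inside the GENCODE span of the gene. Capitals mark matches to a TATA element (letters TATAA), the CCAAT box or a GC box (letters GGGCGG) on either strand.
Tbx4: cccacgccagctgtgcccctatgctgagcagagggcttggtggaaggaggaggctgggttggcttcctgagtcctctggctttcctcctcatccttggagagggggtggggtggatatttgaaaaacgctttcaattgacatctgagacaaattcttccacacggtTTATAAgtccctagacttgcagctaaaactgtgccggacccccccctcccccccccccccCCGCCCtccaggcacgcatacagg
Tbx18: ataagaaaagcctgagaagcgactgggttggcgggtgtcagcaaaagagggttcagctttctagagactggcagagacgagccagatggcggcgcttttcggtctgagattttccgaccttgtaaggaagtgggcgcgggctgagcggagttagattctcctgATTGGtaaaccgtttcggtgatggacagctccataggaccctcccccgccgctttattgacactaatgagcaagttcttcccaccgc
In the Tbx4 window, the TATA element and its reverse complement overlapped, 84 bases before the start, and the reverse complement of the GC box began 24 bases before it. The Tbx18 window held the reverse complement of the CCAAT box 87 bases before the start. These motifs were searched after the factor motifs below and were present in 22.8% (TATA element), 33.8% (CCAAT box) and 32.7% (GC box) of 32851 RefSeq windows of the same length. The T-box core motif GGTGTGA, the GATA motif AGATAA and the NKX2 motif TCAAGTG occurred in 3.33%, 9.99% and 2.68% of all windows. None of the 3 was found in the windows matched to 5 members, Tbx1, Tbx4, Tbx6, Tbx18 and Tbx20.

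Tbx5 (chr5:119832668-119885219, plus strand) activates atrial and left ventricular genes and acts in the posterior progenitors of the heart. In G3 it had 2096, 2406, 2653 and 2739 normalized reads in embryos labelled mutant, against 2046, 2222, 1978 and 2031 in controls. In G17 it had 3221, 3374, 2606 and 2755 in mutants, against 2145, 2865, 2699 and 2431 in controls. The groups overlapped in both lines, although all 8 mutants lay above the control mean of their own line. The log2 fold change was 0.25 ± 0.09 in G3 and 0.24 ± 0.12 in G17 (SE), and neither passed the threshold alone (adjusted p = 0.172 and 0.336). Fitted together, the change of 0.24 ± 0.07 did (SE, adjusted p = 0.0406), and the difference between G17 and G3 was -0.01 (95% interval -0.33 to 0.30). The call was lost without any 1 of 10 embryos, namely G3 embryos 29, 30 and 31 labelled mutant, G3 controls 16, 20 and 21, G17 mutants 33 and 36, and G17 controls 20 and 37. The adjusted p was then 0.0586 to 0.0841 and the fold change 0.21 to 0.25. Limma-voom and the fit with no filter on low values also lost the call, which held in 12 of 24 alternative settings. Cardiomyocyte markers moved in the same direction, with 7 of 8 positive, a median log2 fold change of 0.22 for the common effect and 1 of 8 called (Tnni1), and their part in the Tbx5 value was not tested.

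Tbx20 (chr9:24718138-24774303, minus strand), a factor of chamber myocardium and endocardium, had the most reads of the members and did not pass the threshold in either line. It averaged 5738 ± 1045 in G3 embryos labelled mutant and 5795 ± 770 in controls, and 6025 ± 669 in G17 mutants and 5826 ± 764 in controls (SD, n = 4 each). The common log2 fold change was 0.01 ± 0.09 (SE), with a 95% interval of -0.17 to 0.19, so a change beyond that size in either direction was outside the interval.

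Tbx2 and Tbx3 keep the atrioventricular canal and conduction tissue from taking on a chamber identity, and their fold changes had opposite signs in both lines, without passing the threshold. Tbx2 (chr11:85832551-85841948, plus strand) had 953, 1347, 1200 and 1115 normalized reads in G3 embryos labelled mutant, against 879, 832, 803 and 887 in controls. These G3 groups did not overlap, and the log2 fold change of 0.43 ± 0.12 fell short of the threshold (SE, adjusted p = 0.0741), while DESeq2 on the recovered reads gave an adjusted p of 0.0263. In G17, Tbx2 averaged 1089 ± 132 in mutants and 1024 ± 90.0 in controls, and the groups overlapped. Tbx2 ends 44.5 kb before the start of Tbx4, and 1 coding gene model, Gm11444, lies between them.

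Tbx3 (chr5:119670669-119684724, plus strand) had 1855, 1818, 1432 and 1334 normalized reads in G17 mutants, against 1562, 3659, 2377 and 2431 in G17 controls. Control 29 was the highest and control 20 lay within the range of the mutants. The log2 fold change was -0.59 ± 0.21 (SE, adjusted p = 0.168 with limma). The adjusted p was 0.0391 with DESeq2 on the recovered reads, 0.155 with edgeR, 0.186 with limma-voom and 0.130 in the authors' deposited table. The log2 fold change was -0.79 with an adjusted p of 0.0231 without control 20, and -0.39 with an adjusted p of 0.287 without control 29. In G3 it averaged 1756 ± 275 in embryos labelled mutant and 1899 ± 318 in controls (SD, n = 4 each), and the log2 fold change of -0.11 ± 0.13 did not pass (SE, adjusted p = 0.713). The antisense gene Tbx3os1 shares 115 exon bases with Tbx3 and held at most 58.6 normalized reads in any embryo. Whether counting used strand is not given in the sources used here. Tbx3 and Tbx5 lie 148 kb apart on the same strand with no coding gene between them.

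Tbx1 (chr16:18580979-18590671, minus strand) acts in pharyngeal mesoderm, endoderm and the anterior progenitors of the outflow tract. It had 2018, 2126, 2104 and 1097 normalized reads in G3 embryos labelled mutant, against 2218, 1367, 2319 and 1903 in controls. In G17 it had 1033, 1877, 1651 and 2197 in mutants, against 2465, 1158, 2430 and 2463 in controls. The lowest embryo of each of the 4 groups had 1033 to 1367 and the others had 1651 to 2465, so the groups overlapped in both lines. The log2 fold change was -0.11 ± 0.21 in G3 and -0.32 ± 0.26 in G17 (SE, adjusted p = 0.842 and 0.611). Of 18 tested genes chosen around Tbx1 in the pharynx, 1 rose in G3, Tcf21, and none passed in G17, with medians of -0.05 and -0.11. The share called over all genes tested was 3.98% in G3 and 3.03% in G17, with medians of 0.012 and -0.0093.

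Tbx18 (chr9:87702800-87731260, minus strand) is needed for the sinus horns and is expressed in the proepicardium. In G17 it had 542, 403, 431 and 497 normalized reads in mutants, against 339, 329, 248 and 274 in controls. These groups did not overlap, but the log2 fold change of 0.65 ± 0.21 did not pass (SE, adjusted p = 0.130). In G3 it had 382, 385, 479 and 413 in embryos labelled mutant, against 344, 405, 341 and 492 in controls, with overlap and a log2 fold change of 0.08 ± 0.18 (SE). The difference between the lines was 0.57 (95% interval 0.02 to 1.13, unadjusted p = 0.0440, adjusted p = 0.777). In the controls alone, the G17 against G3 difference of Tbx18 was -0.42 (95% interval -0.88 to 0.05). Of the 4 proepicardium markers, 3 were tested and none passed in G17, and their summed level was 470 to 1099 in G17 mutants and 427 to 1060 in G17 controls. The overlapping gene D030062O11Rik on the other strand shares 970 exon bases with Tbx18 and held at most 23.4 normalized reads. Counting mutant and control groups that did not overlap gave 2 of 9 members in each line, Tbx2 and Tbx4 in G3 and Tbx4 and Tbx18 in G17, against 11.5% of all genes in G3 and 9.93% in G17. Tbx4 needed its mutants to pass the filter in both lines, so its place in these counts is a description.

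**Figure D2:**
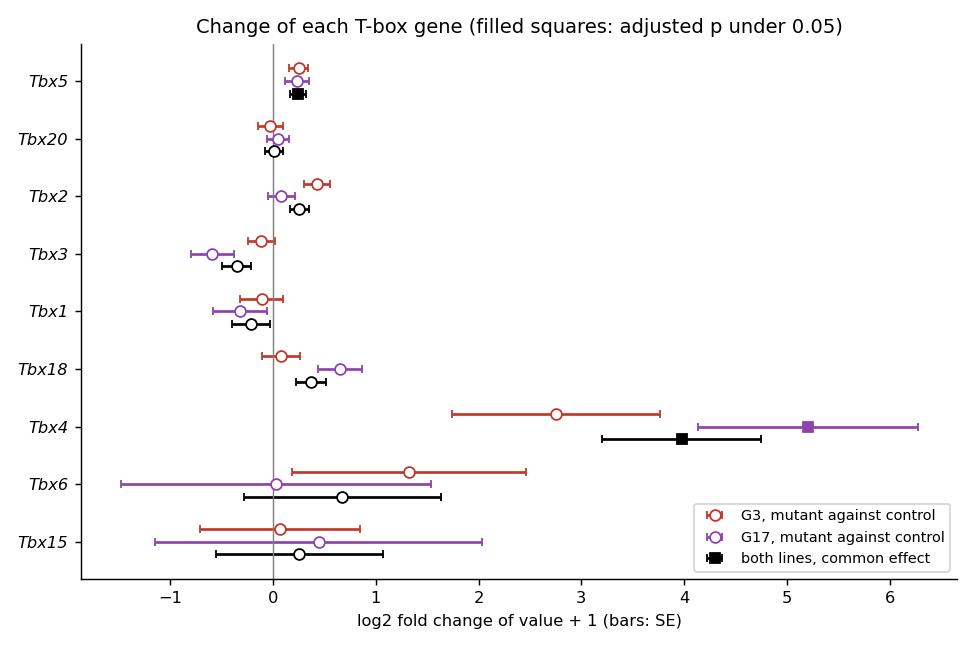
Log2 fold change of value + 1 (horizontal axis, bars are SE) of each T-box gene, mutant against control, in G3, in G17 and for the common effect of both lines. Filled squares passed the threshold: Tbx4 in G17 at 5.20, and Tbx4 and Tbx5 for the common effect at 3.98 and 0.24.

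Tbx6 and Tbx15 were close to the detection floor. Tbx6 (chr7:126781483-126785560, plus strand), which specifies presomitic mesoderm, had 0 to 62.8 normalized reads and 0 in 3 of 16 embryos. Tbx15 (chr3:99240381-99354259, plus strand), a gene of skeletal mesenchyme, had 0 to 55.2, also with values of 0 in G17 mutants and G17 controls. Neither passed the threshold, and their 95% intervals in G17 reached from -3.23 to 3.29 for Tbx6 and from -3.00 to 3.88 for Tbx15, so the intervals held fold changes of several units in either direction. In G3 they reached from -1.13 to 3.78 for Tbx6 and from -1.60 to 1.74 for Tbx15. Among the genes chosen around Tbx6 in presomitic mesoderm and somites, 1 of 17 tested fell in G3 and 2 of 16 fell in G17, and none rose, with medians of -0.24 and -0.51. For all genes tested, 3.98% were called in G3 and 3.03% in G17, and the medians were 0.012 and -0.0093. Tcf15, a factor of the somites, fell in both lines, and averaged 657 ± 165 in G3 embryos labelled mutant and 1051 ± 90.7 in controls, and 418 ± 132 in G17 mutants and 890 ± 178 in controls (SD, n = 4 each; adjusted p = 0.0389 and 0.0259). The Notch modulator Lfng fell in G17, with a log2 fold change of -0.93 ± 0.19 (SE, adjusted p = 0.0193). The call of Tcf15 held in 10 of 19 alternative settings in G3 and in 14 of 18 in G17. That of Lfng in G17 held in 13 of 18. The presomitic gene Msgn1 had at most 3 reads in every embryo of the G3 controls, G17 mutants and G17 controls.

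No T-box gene differed in its genotype effect between the lines after adjustment (0 of 9 with limma, DESeq2, edgeR and limma-voom, against 0.01% of all genes with limma). Tbx18 was the only member with an unadjusted p under 0.05 in that comparison. Between the controls of G17 and G3, no member and none of all genes tested passed (0 of 8 members with limma and with edgeR, 0% of all genes), and Tbx4 fell below the filter. Tbx5 alone reached an unadjusted p under 0.05 there, at 0.27 ± 0.10 on the log2 scale (SE).

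Levels of different genes were compared per length, as RPKM, which scales reads to exon length and library size. Over 8 mutants the order was Tbx5 at 14.1 ± 2.12, Tbx1 at 12.1 ± 3.20, Tbx20 at 11.9 ± 1.65, Tbx2 at 7.48 ± 0.95, Tbx3 at 6.14 ± 0.95, Tbx18 at 2.26 ± 0.30, Tbx4 at 0.669 ± 0.528, Tbx6 at 0.376 ± 0.247 and Tbx15 at 0.132 ± 0.105 RPKM (SD). Over 8 controls it was Tbx1 at 13.8 ± 3.53, Tbx5 at 11.7 ± 1.57, Tbx20 at 11.5 ± 1.42, Tbx3 at 7.87 ± 2.34, Tbx2 at 6.13 ± 0.70, Tbx18 at 1.74 ± 0.39, Tbx6 at 0.298 ± 0.249, Tbx15 at 0.121 ± 0.113 and Tbx4 at 0.0602 ± 0.0665 RPKM (SD). The ranges of Tbx5, Tbx1 and Tbx20 overlapped one another in both genotypes, as did those of Tbx2 and Tbx3. Tbx18 stood clear of its neighbours in the order in both genotypes. Tbx4 ranked above Tbx6 and Tbx15 in mutants, although its range overlapped those of both, and it had the lowest mean in controls. There its range also overlapped those of Tbx6 and Tbx15, and Tbx15 was higher in only 4 of 8 embryos. In controls the range of Tbx3 also reached those of Tbx1, Tbx5 and Tbx20. In mutants the range of Tbx1 reached those of Tbx2 and Tbx3.

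**Figure D3:**
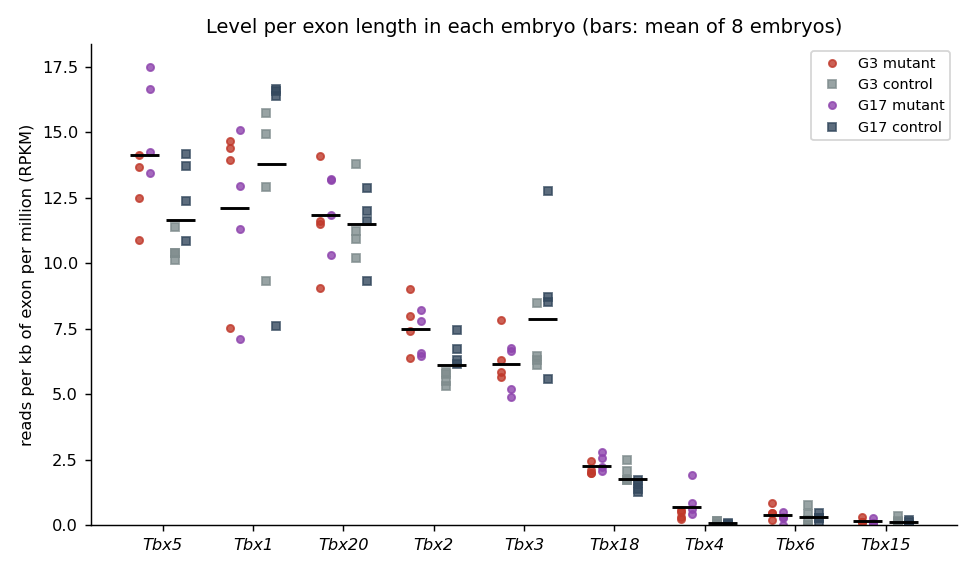
RPKM (vertical axis, linear from 0) of each T-box gene in the 16 embryos, mutants left of controls within each gene, with bars at the mean of 8 embryos. Tbx5, Tbx1 and Tbx20 lie between 7.10 and 17.5 RPKM, and Tbx4, Tbx6 and Tbx15 lie below 2.

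Other family genes in the tables were described by level only. Mga averaged 8730 ± 471 in G3 embryos labelled mutant and 8335 ± 347 in controls, and 8964 ± 702 in G17 mutants and 8517 ± 438 in controls (SD, n = 4 each). T, the mesoderm gene brachyury, averaged 650 ± 123 in G3 embryos labelled mutant and 534 ± 174 in controls, and 801 ± 247 in G17 mutants and 405 ± 264 in controls. The highest group mean of Eomes was 57.7, in G3 controls, and that of Tbx22 was 16.2, in G17 mutants.

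The chamber genes known as T-box targets were next. Of 18 genes, 17 were tested in each line, and 1 rose in G3, while 1 rose and 1 fell in G17. The gene that rose in each line was Gja5, an atrial and ventricular connexin activated by Tbx5 and repressed by Tbx2 and Tbx3. It had 478, 637, 652 and 415 normalized reads in G3 embryos labelled mutant, against 90.2, 252, 66.8 and 179 in controls. In G17 it had 1142, 839, 969 and 975 in mutants, against 207, 67.0, 191 and 246 in controls. All mutants were above all controls of their line, and the common log2 fold change was 2.33 ± 0.27 (SE, adjusted p = 1.01e-05). Cacna1g, a T-type calcium channel of the conduction system, fell in G17, where it averaged 830 ± 140 in mutants and 1618 ± 319 in controls (SD, n = 4 each; adjusted p = 0.00768). For the common effect, Gja1, a connexin of working myocardium, fell by 0.17 on the log2 scale (adjusted p = 0.0120). The median of the list was 0.15 in G3 and -0.00064 in G17, against 0.012 and -0.0093 over all genes tested. Of those, 3.98% were called in G3 and 3.03% in G17.

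Nppa, a natriuretic peptide gene of the chambers, was singled out after its values were seen. It had 0 reads in all 8 mutants. In G3 controls it had 9.55, 60.0, 0 and 44.1 normalized reads, and in G17 controls 37.2, 0, 51.1 and 0. Since 3 of 8 controls were also at 0, the groups overlapped, and the common effect missed the threshold (adjusted p = 0.0530). Its relative Nppb averaged 45.1 ± 23.5 in G3 embryos labelled mutant and 118 ± 176 in controls, and 52.9 ± 39.3 in G17 mutants and 108 ± 33.2 in controls (SD, n = 4 each), without passing in either line.

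Among 15 cardiac partners of the T-box factors, 3 rose in G3 and 1 rose in G17, and none fell. Sall4, a zinc finger factor that binds with TBX5, rose in both lines, by 0.29 ± 0.07 in G3 and 0.36 ± 0.08 in G17 on the log2 scale (SE, adjusted p = 0.0336 and 0.0400). Gata6 rose by 0.41 ± 0.10 and Myocd by 0.32 ± 0.08 in G3 (SE, adjusted p = 0.0309 and 0.0483). The call of Sall4 held in 12 of 19 alternative settings in G3 and in 10 of 18 in G17. In G3, that of Gata6 held in 13 of 19 and that of Myocd in 9 of 19. Nkx2-5, a direct partner of Tbx5 and Tbx20, averaged 3120 ± 263 in G3 embryos labelled mutant and 3238 ± 344 in controls, and 2787 ± 231 in G17 mutants and 3024 ± 491 in controls (SD, n = 4 each), and did not pass. The list's median was 0.15 in G3 and -0.02 in G17. Over all genes tested it was 0.012 and -0.0093, with 3.98% called in G3 and 3.03% in G17.

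BMP signals switch on Tbx2 and Tbx3 in the atrioventricular canal. Of 16 genes of that pathway, 2 rose and 1 fell in G3, and 1 fell in G17. In G3, Bmp4 rose by 0.78 ± 0.16 and the inhibitory Smad6 by 0.50 ± 0.12, and the signal transducer Smad1 fell by 0.35 on the log2 scale (adjusted p = 0.0160, 0.0411 and 0.0342). In G17 the target gene Msx1 fell by 0.86 on the log2 scale (adjusted p = 0.0392), and Bmp4 had a log2 fold change of 0.18 ± 0.19 (SE). In G3 the calls of Bmp4, Smad6 and Smad1 held in 17, 8 and 12 of 19 alternative settings, and the Smad6 groups overlapped. That of Msx1 in G17 held in 9 of 18. The list's median was 0.12 in G3 and -0.05 in G17. All genes tested had medians of 0.012 and -0.0093, and 3.98% of them were called in G3 and 3.03% in G17. None of the 16 passed the test of a difference between the lines.

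In the posterior progenitor field where Tbx5 acts, 1 of 15 genes rose in G3 and none passed in G17, with medians of 0.19 and -0.05. The gene was Wnt2, a signal of the posterior heart and foregut mesenchyme, which rose by 0.64 ± 0.15 in G3 and had 0.35 ± 0.13 in G17 (SE, adjusted p = 0.0276 and 0.196). Around Tbx18, 2 of 9 tested genes of the sinus venosus and proepicardium rose in G3, and none passed in G17, with medians of 0.06 and -0.22. Beside both lists, 3.98% of all genes were called in G3 and 3.03% in G17, with medians of 0.012 and -0.0093. Bnc1 averaged 771 ± 156 in G3 embryos labelled mutant and 180 ± 107 in controls, and 814 ± 212 in G17 mutants and 539 ± 189 in controls (SD, n = 4 each). Tcf21 rose by 0.81 ± 0.19 on the log2 scale in G3 (SE, adjusted p = 0.0320). Its call in G3 held in 11 of 19 alternative settings, and that of Wnt2 in 14 of 19. For the common effect, the guidance gene Sema3d and the Wnt inhibitor Sfrp5 fell, by 0.72 and 0.30 on the log2 scale. Neither Bnc1 nor Tcf21 passed the test of a difference between the lines (adjusted p = 0.654 and 0.984).

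**Figure D4:**
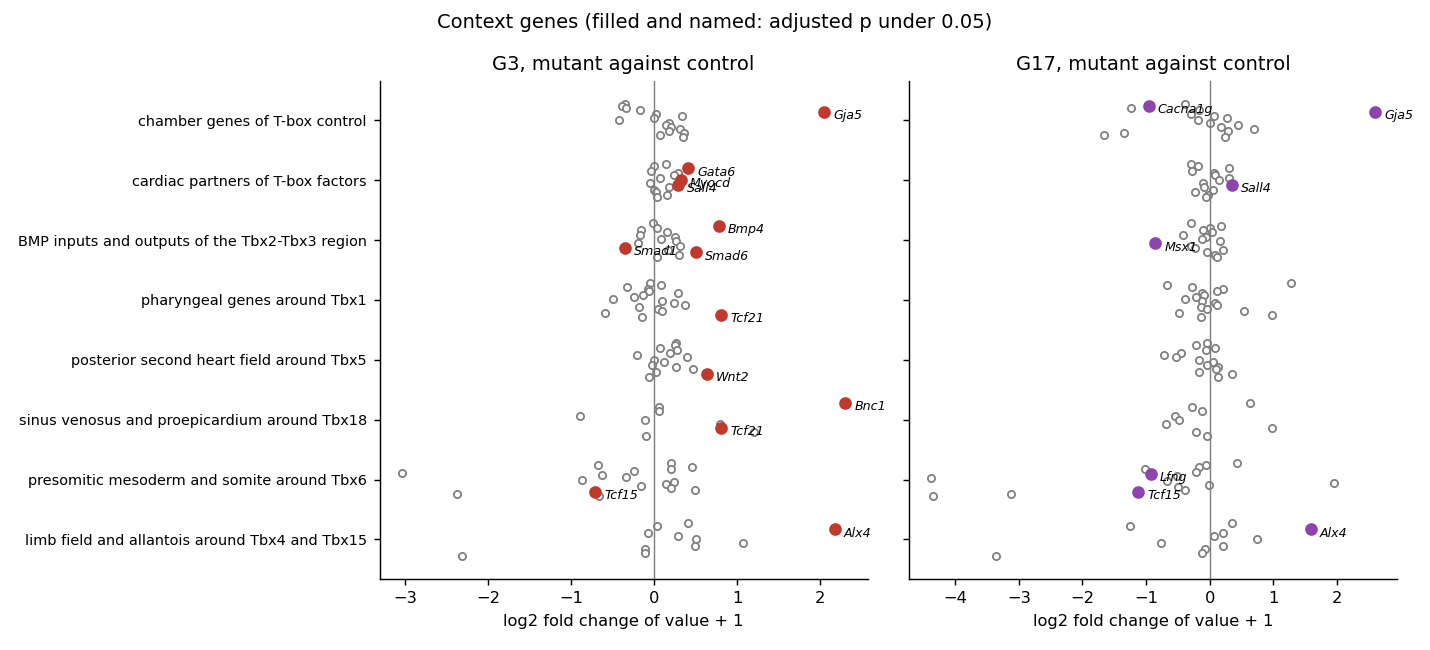
Log2 fold change of value + 1 (horizontal axes), mutant against control, of the genes in 8 lists chosen around the T-box members (rows), in G3 on the left and G17 on the right. Filled, named points passed the threshold; Gja5, Alx4, Sall4 and Tcf15 are filled in both lines.

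The embryos of a group also differed among themselves, so each member's deviation from its group mean was followed over the 16 embryos. Among the 15 pairs of the 6 members above 100 normalized reads, the median Pearson r was 0.07. Tbx5 and Tbx20 were the most alike, with r = 0.83 and rho = 0.75 (permutation p within groups = 0.000690 and 0.00443, adjusted over 15 pairs 0.0103 and 0.0664). Without the 2 embryos farthest from the median of Tbx5, r was 0.70. Tbx3 and Tbx5 had r = 0.70 and rho = 0.73 (permutation p = 0.0114 and 0.0104, adjusted 0.0852 and 0.0781), and r was 0.54 without the 2 farthest embryos of Tbx3. Tbx1 and Tbx5 had the lowest value, with r = -0.57 and rho = -0.62 (permutation p = 0.0580 and 0.0265, adjusted 0.217 and 0.133). The r was -0.37 without 2 embryos low in Tbx1, G3 embryo 31 labelled mutant and G17 control 29.

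**Figure D5:**
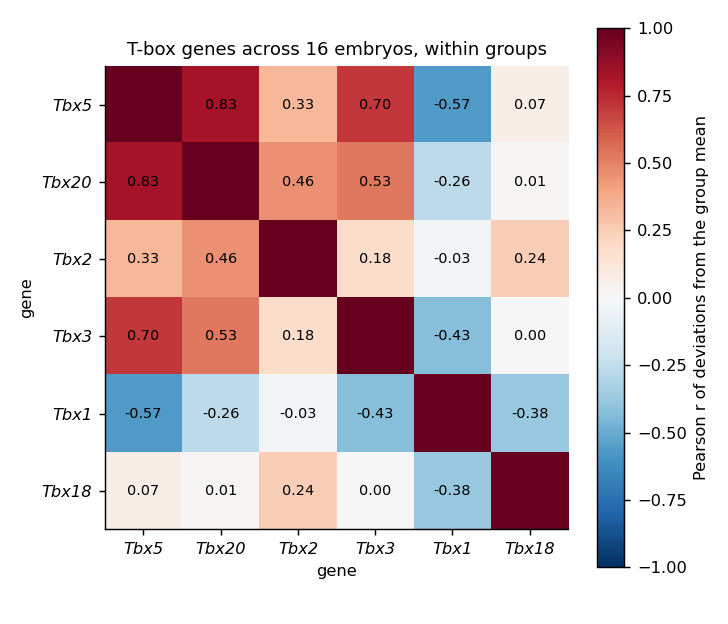
Pearson r between the deviations of 6 T-box genes from their group means over 16 embryos (color scale from -1 to 1, value printed in each cell). Tbx5 and Tbx20 have the highest value, 0.83, and Tbx1 and Tbx5 the lowest, -0.57.

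The genes whose deviations were most like a member's were ranked among 11340 others, as a description with no test. Tbx1 was followed most closely by Foxi3, a forkhead gene of pharyngeal ectoderm and endoderm (r = 0.96, rho = 0.84), by Cped1 (r = 0.96, rho = 0.92) and by Eya4 (r = 0.96, rho = 0.71), a gene of the Eya family. Tbx1 held 2 embryos far below the rest of their groups, G3 embryo 31 labelled mutant and G17 control 29. Tbx20 was followed by Smad6 (r = 0.94, rho = 0.94), Lmo7 (r = 0.89, rho = 0.89) and Ankrd1 (r = 0.89, rho = 0.89), a gene of the cardiomyocyte. Tbx5 was followed by Gab1 (r = 0.88, rho = 0.91), Pde9a (r = 0.87, rho = 0.90) and Ssh3 (r = 0.84, rho = 0.81), and Tbx2 by Npr1, a natriuretic peptide receptor (r = 0.87, rho = 0.88), Adora2b (r = 0.86, rho = 0.81) and Car7 (r = 0.86, rho = 0.81). Tbx3 was followed by Commd4 (r = 0.92, rho = 0.81), Tbx4 by Irf2 (r = 0.86, rho = 0.78) and Tbx18 by Rab5b (r = 0.83, rho = 0.81). The controls of both lines had only 0 to 22.8 normalized reads of Tbx4, so its likeness rests partly on low counts. Both genes of each pair were read in the same 16 libraries, so they share each embryo's dissection and library.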

How the data were processed

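Total RNA of single microdissected heart regions was sequenced as paired-end reads of 100 bases, per the labels' protocols. The submitters' processing notes name HISAT2, featureCounts (Subread), DESeq2 and the build GRCm38. The authors deposited 1 table per line with a normalized signal per gene and embryo (reads divided by a size factor), group means, and p-values with Benjamini-Hochberg adjustment, per the file headers. These values are not raw counts. In every library 100% of values were whole multiples of 1 read, within 0.01 reads or a relative 1e-06, so whole reads were recovered and used for edgeR 4.0.16, DESeq2 1.42.0 and RPKM. No per-embryo column was left unused.

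The main test was limma 3.58.1 with a mean-variance trend on log2(value + 1), keeping genes that reached 10 normalized reads in 4 or more embryos of the fit, with adjustment over all genes tested and a threshold of 0.05. Fold changes are differences of mean log2(value + 1). Adding 1 shrinks the change of low genes on that scale, but a difference of mean logs can also exceed the log2 ratio of the means, as for Tbx4 in G17 (5.20 against 4.97) and in G3 (2.75 against 2.13). The edgeR test on recovered reads called 609 genes in G3 and 483 in G17, against 717 and 537 with limma. The common effect and the difference were fitted on all 16 embryos with line in the model, because the tables were normalized separately. Intervals are 95%, and floors cover counting error only. Exon lengths came from GENCODE M21, which held 48144 of 48526 gene IDs, and upstream sequences from RefSeq (GRCm38.p6), with an entry for 5 of 9 members. Correlations used log2(value + 1) deviations from group means, with 100000 permutations within groups. The scripts were tested on simulated data.

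All 9 members were described in each comparison. From each of 8 context lists, genes past the threshold in a line or the common effect were named, at most 4 per list; 1 gene of the lists is not reported here and was left out of the list counts. Members, taken by name, and lists were chosen with earlier results of these data known. Tests of genotype and of the difference between the lines were repeated with other tools, filters, pseudocounts (0.1 and 5), and without each embryo; the comparison of controls was repeated with edgeR and without each embryo.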

Additional observations from a re-analysis of the deposited data

Results flagged for a closer look

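Dixon's test at the 95% level was applied to 36 groups of 4 embryos, 9 genes in 4 groups each, and marked 4 values, where chance marks about 1 in 20 groups. Tbx1 was 1097 in G3 embryo 31 labelled mutant, against 2018 to 2126 in the other embryos of that group. Tbx1 was 1158 in G17 control 29, against 2430 to 2465 in the other controls. Tbx3 was 2372 in G3 control 16, against 1687 to 1789 in the other controls. Tbx15 was 49.2 in G3 embryo 29 labelled mutant, against 14.4 to 19.5 in the others, all of them low counts.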

How the results depend on the processing

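The number of T-box genes called depended on the setting. In G3 it was 0, and 1 (Tbx2) with DESeq2 and with a filter that asked for 5 CPM or more on average in 1 of the groups; it ranged from 0 to 1 when each embryo was left out. In G17 it was 1 (Tbx4), 2 in 1 fit of all 16 embryos (adding Tbx18) and with DESeq2 (adding Tbx3), and 0 with limma-voom, with the CPM filter and with a pseudocount of 0.1. The CPM filter removed Tbx4. Leaving out embryos gave 0 to 2 in G17 and 1 to 2 for the common effect. The common effect had 2 calls, and 1 with limma-voom, with the CPM filter and with no filter. No setting run gave a call for the difference between the lines, nor did edgeR or leaving out each embryo between the controls.

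Tbx4 stayed positive in every setting that tested it, at 3.84 to 6.92 in G17 and 1.75 to 3.63 in G3, and its common effect stayed called in all 23 that tested it. Its call in G17 was lost with limma-voom (adjusted p = 0.153) and a pseudocount of 0.1 (adjusted p = 0.0687); the cause was not tested. The fits that kept the tested genes were chosen after seeing the data. Tbx5 kept a common effect of 0.21 to 0.28, with adjusted p up to 0.0841.

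The sign changed for some members that were not called. For Tbx15 in G3 (0.07), the log2 fold change was -0.0347 with DESeq2, -0.0358 in the authors' deposited table, -0.0347 with edgeR and RLE factors, and -0.0268 with TMM factors. Leaving out each embryo gave -0.31 to 0.52 for Tbx15, -0.27 to 0.12 for Tbx1 and -0.13 to 0.092 for Tbx20 in G3. In G17 it gave -1.15 to 1.22 for Tbx6, -0.47 to 1.50 for Tbx15 and -0.045 to 0.13 for Tbx20. For the common effect it gave -0.18 to 0.73 for Tbx15 and -0.034 to 0.070 for Tbx20. For the difference between the lines it gave -0.48 to 0.0070 for Tbx1, -0.090 to 0.050 for Tbx5, -0.54 to 1.44 for Tbx15 and -0.040 to 0.18 for Tbx20.

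Under the same alternatives, added after seeing the data, none of the called context genes changed sign. Of those called, 3 of 12 in G3 (Alx4, Bnc1, Gja5), 3 of 7 in G17 (Alx4, Cacna1g, Gja5) and 12 of 19 for the common effect passed in every setting. No paired analysis was possible because mutants and controls of a line share no embryo numbers and the labels give no litters. The low reads of Tbx6 and Tbx15 left wide intervals.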
